A study of Mus musculus with 8 samples.

Results

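The genes described here present antigen on molecules of the major histocompatibility complex (MHC, not to be read as myosin heavy chain). They were 10 genes fixed by name: H2-K1, H2-D1, H2-Aa, H2-Ab1, H2-Eb1, B2m, Tap1, Cd74, Ciita and Nlrc5. Each was found by splitting the gene symbol column of the deposited table and keeping the row that names it, and each had 1 probe set, so the genes made up 10 of 22206 probe sets and of 21980 distinct symbol entries. The rule itself uses no measured value. The samples were gastrocnemius (GAS) muscles of male C57/Bl6j mice, 22 weeks old, that had been injected at about 10 weeks of age. In the MYTHO-KD group (4 muscles) an adeno-associated virus (AAV) of serotype 1 carried a short hairpin RNA against MYTHO, the product of D230025D16Rik, and in the scramble group (4 muscles) the same kind of AAV carried a scramble hairpin. Muscles were taken 12 weeks after injection, and their total RNA was read on Clariom S Mouse arrays, which cover each gene with a set of short probes.

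Several features limit these muscles as a model. Both hairpins were driven by a U6 promoter, which is active in any transduced cell and not in muscle fibres alone, and both groups had received a virus, so no group was free of AAV. The methods place the MYTHO hairpin in the right leg and the scramble hairpin in the other leg, so side and hairpin cannot be told apart. The groups are thus opposite legs of the same mice, but the labels tie no muscle to a mouse, and every test here treats the 8 muscles as independent. The values of single muscles were not analysed here because the table gives 1 average and 1 standard deviation (SD) a group. Whole muscle was measured, so more or fewer cells of a type and more or less RNA per cell cannot be told apart. The targeted gene checks the labels: D230025D16Rik read 7.71 ± 0.66 (log2, SD, n = 4) in MYTHO-KD and 10.02 ± 0.37 in scramble muscles. It thus fell by 2.31 on the log2 scale (limma, adjusted p = 0.0138).

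Class I molecules stand on nearly all nucleated cells and show peptides made in the cytosol to CD8 T cells. Their heavy chain (H2-K1, H2-D1) pairs with the light chain B2m, and the transporter Tap1 moves peptides into the endoplasmic reticulum for loading. Class II molecules stand mainly on macrophages, dendritic cells and B cells and show peptides from the endosome to CD4 T cells. The invariant chain Cd74 fills the groove of the class II heterodimer (H2-Aa with H2-Ab1, or an alpha chain with H2-Eb1) until endosomal proteases and the H2-DM exchange factor let a peptide in. Ciita and Nlrc5 are coactivators of class II and class I genes that bind no DNA themselves and act through factors on the X and Y boxes of their promoters. Healthy muscle fibres make little class I and, at rest, no appreciable class II.

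The promoters of genes on either side of this division are shown because X and Y boxes are the shared control element of the family. Promoter sequences of RefSeq (GRCm38.p6, from 250 bases before to 50 after each start) were matched by symbol for 6 of the 10 genes, namely H2-Aa, H2-Eb1, H2-K1, H2-D1, B2m and Tap1. Each line gives the 150 bases before the start on the gene's own strand, 5′ to 3′. Capitals mark the inverted CCAAT box of the Y box (ATTGG, or CCAAT on the other strand), the X box core (AG, any 2 bases, AC, any base, GATG) and the core of the interferon-stimulated response element (ISRE; GAAA, any 2 bases, GAAA). H2-DMb1, which encodes a chain of the exchange factor and is not among the 10 genes, is included as a class II partner, and B2m as a class I gene.
H2-Aa: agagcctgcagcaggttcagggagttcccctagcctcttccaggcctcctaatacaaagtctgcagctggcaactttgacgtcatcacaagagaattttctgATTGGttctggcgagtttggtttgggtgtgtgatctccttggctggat
H2-Eb1: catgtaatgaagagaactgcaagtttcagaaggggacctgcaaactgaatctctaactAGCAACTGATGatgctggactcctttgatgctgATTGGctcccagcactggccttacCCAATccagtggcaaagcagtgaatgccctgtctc
H2-DMb1: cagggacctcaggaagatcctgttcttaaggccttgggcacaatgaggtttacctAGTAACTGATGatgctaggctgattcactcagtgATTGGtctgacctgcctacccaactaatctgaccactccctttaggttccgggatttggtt
B2m: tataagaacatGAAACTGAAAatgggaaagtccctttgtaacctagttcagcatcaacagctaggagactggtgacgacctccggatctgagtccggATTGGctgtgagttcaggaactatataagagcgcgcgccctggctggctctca

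The stretch of H2-Aa lies at chr17:34287824-34287973 (minus strand), that of H2-Eb1 at chr17:34305717-34305866, that of H2-DMb1 at chr17:34153041-34153190 and that of B2m at chr2:122147537-122147686 (all 3 on the plus strand). The inverted CCAAT box began 48 bases before the start in H2-Aa, 59 in H2-Eb1, 61 in H2-DMb1 and 53 in B2m. It was found in all 6 of the matched promoters, on either strand and over the whole 300 bases, against 37.4% of the 32851 promoters of the table. The X box core began 92 bases before the start in H2-Eb1 and 95 in H2-DMb1. Of the 6 it was in H2-Eb1 alone, and 0.968% of all promoters held it. The ISRE core, read by interferon regulatory factors, began 139 bases before the start of B2m, was in none of the other matched genes of the 10, and was in 3.44% of all promoters. The gamma-activated site, another interferon element (TTC, any 3 bases, GAA), was in 0 of the 6 and in 8.3% of all promoters. None of these motifs overlapped another in the sequences shown. A match says only that the letters are there. Because the patterns were fixed, a missing match does not show that a promoter lacks the element.

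The class II genes among the 10 were higher in MYTHO-KD muscles, led by Cd74, and the class I genes and coactivators did not pass the test. At an unadjusted p under 0.05 by limma's moderated test, 4 of the 10 genes were higher, where 6.48% of all probe sets were, and 0 were lower, where 5.52% were. With a change of 2-fold or more added, the call rule of the study's methods, 1 gene was higher (Cd74, background 0.86%) and 0 were lower (background 0.257%). After adjustment by Benjamini-Hochberg over all probe sets, 0 of the 10 passed 0.05, against 0.275% of all probe sets. The median difference of the 10 genes, MYTHO-KD minus scramble, was 0.365 (log2), and that of all probe sets was -0.01. All 10 were flagged as expressed in both groups by the authors' software, as were 21222 of all 22206 probe sets. The flag therefore does not set these genes apart.

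**Figure D1:**
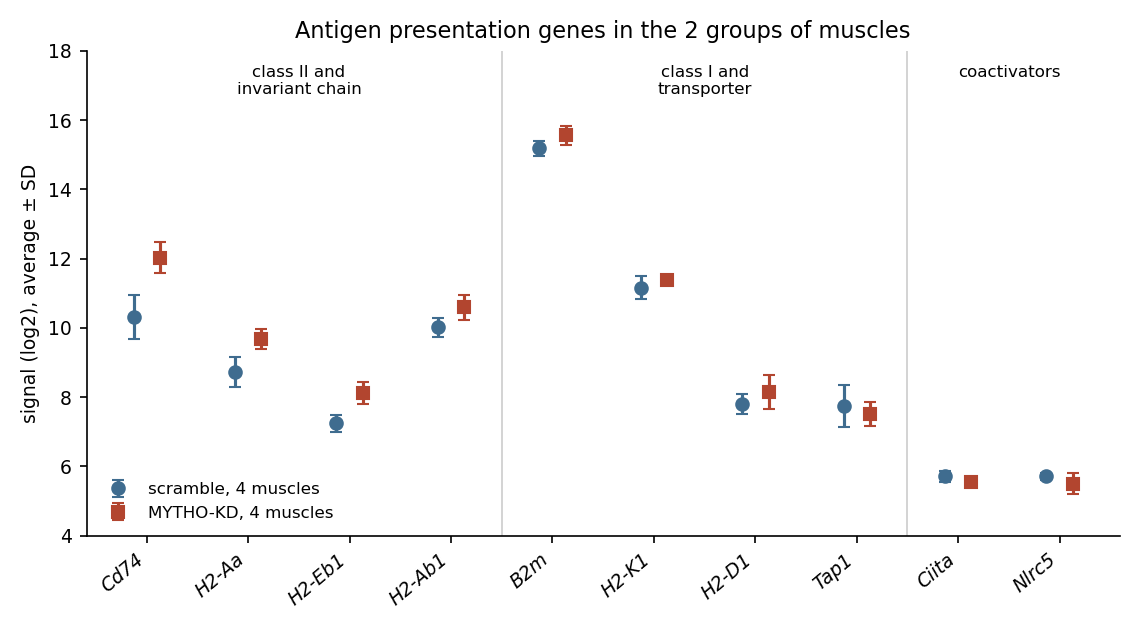
Signal (log2) of the 10 genes in scramble (circles) and MYTHO-KD (squares) muscles, as the authors' average of 4 muscles, with bars of 1 SD. The bars of Cd74, H2-Aa and H2-Eb1 do not reach each other, and those of the other genes do. The share of all probe sets whose bars stay apart is not given here. Bars can also stay apart without a call, as for Psmb9, a gene outside the 10 (limma, unadjusted p = 0.135).

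Cd74, the invariant chain, read 12.03 ± 0.46 (log2, SD, n = 4) in MYTHO-KD and 10.32 ± 0.63 in scramble muscles. The difference of 1.71 (95% confidence interval 1.03 to 2.39) is a 3.27-fold rise (limma, unadjusted p = 1.44e-04, adjusted p = 0.0509). In order of size it was rank 37 among the rises of all 22206 probe sets. The probe set also names Mir5107, a microRNA inside the gene, and lies on chromosome 18, away from the MHC. The adjusted p lay just above 0.05 and moved to either side of it with the settings, from 0.0124 to 0.429, while the unadjusted p was at most 0.00573.

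H2-Aa, the alpha chain of the I-A molecule (chr17:34282744-34287827, mm10, as all positions here), read 9.67 ± 0.29 in MYTHO-KD and 8.73 ± 0.43 in scramble muscles. It was 1.92-fold higher, with a difference of 0.94 (95% confidence interval 0.43 to 1.45; limma, unadjusted p = 0.00166, adjusted p = 0.131). H2-Eb1, the beta chain of the I-E molecule (chr17:34305867-34316674), read 8.12 ± 0.32 and 7.24 ± 0.25, which is 1.84-fold higher, with a difference of 0.88 (0.44 to 1.32; limma, unadjusted p = 9.60e-04, adjusted p = 0.102). Both lay just under the 2-fold limit and so were not called by that rule. The partner of H2-Eb1 is not made in this strain, whose alpha chain gene carries a deletion. Its probe set, H2-Ea-ps, read 5.06 ± 0.30 and 5.20 ± 0.39 (limma, unadjusted p = 0.545), both under the 30th percentile of all signals (5.715), a gene chosen after its values were seen.

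H2-Ab1, the beta chain that pairs with H2-Aa (chr17:34263209-34269418), read 10.59 ± 0.35 in MYTHO-KD and 10.01 ± 0.27 in scramble muscles. The difference of 0.58 (0.12 to 1.04), 1.49-fold, was the lowest of the class II genes (limma, unadjusted p = 0.0179, adjusted p = 0.303), and here the averages with 1 SD on each side overlapped. Its interval overlaps those of H2-Aa and Cd74, and whether these genes rose by different amounts was not tested.

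B2m, the light chain (chr2:122147686-122153083), read 15.56 ± 0.27 in MYTHO-KD and 15.18 ± 0.21 in scramble muscles, 1.3-fold, a difference of 0.38 (-0.03 to 0.79; limma, unadjusted p = 0.0643, adjusted p = 0.447). With a prior that followed the signal the unadjusted p was 0.0305. The heavy chain H2-K1 (chr17:33996012-34000333) read 11.38 ± 0.09 and 11.16 ± 0.33, a difference of 0.22 (-0.19 to 0.63; limma, unadjusted p = 0.261). The heavy chain H2-D1 (chr17:35262730-35267499) shares its probe set with H2-L and read 8.15 ± 0.48 and 7.80 ± 0.28, a difference of 0.35 (-0.18 to 0.88; limma, unadjusted p = 0.176). The upper bounds of these intervals stay below a doubling.

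Tap1, a subunit of the peptide transporter (chr17:34187553-34197225), lies between the class II genes on the chromosome. It read 7.51 ± 0.35 in MYTHO-KD and 7.75 ± 0.61 in scramble muscles, a difference of -0.24 (-0.87 to 0.39; limma, unadjusted p = 0.42). The average was lower in MYTHO-KD muscles by less than either SD. Over the 4 genes of class I presentation the differences ran from -0.24 to 0.38, over the 4 class II genes from 0.58 to 1.71. The ranges are given as a description, since the difference between the classes was not tested.

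The coactivators were dim. Ciita, which switches on class II genes (chr16:10480072-10527564), read 5.54 ± 0.15 in MYTHO-KD and 5.71 ± 0.16 in scramble muscles, a difference of -0.17 (-0.52 to 0.18; limma, unadjusted p = 0.313). Nlrc5, its class I counterpart (chr8:94472763-94527272, with Mir7072 in the same probe set), read 5.50 ± 0.31 and 5.71 ± 0.10, a difference of -0.21 (-0.61 to 0.19; limma, unadjusted p = 0.273). Both groups lay under the 30th percentile of all probe sets for both genes. A change in mRNA this close to the floor may not be seen on these arrays.

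**Figure D2:**
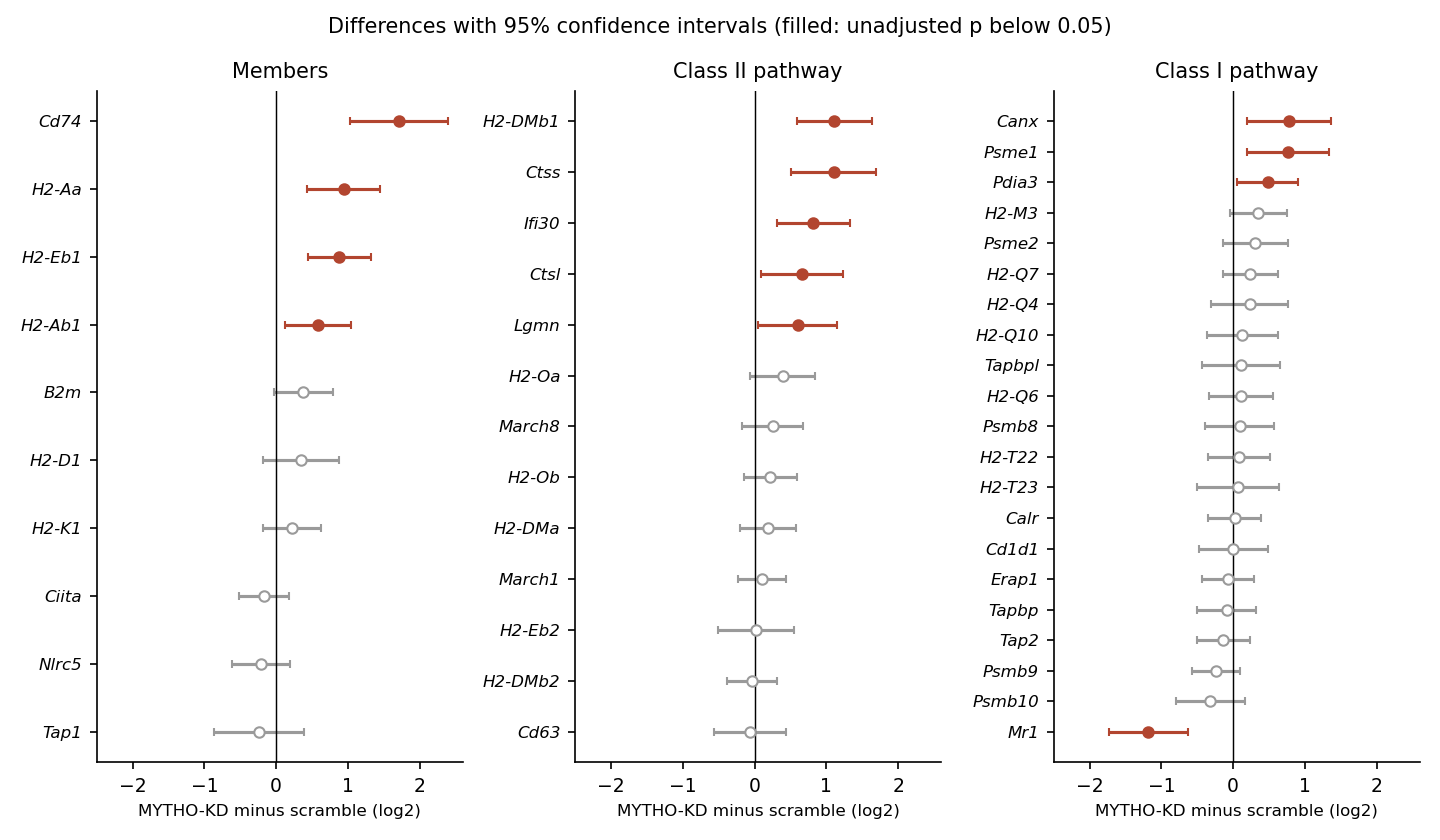
MYTHO-KD minus scramble (log2) with 95% confidence intervals for the 10 genes (left), 13 further class II pathway genes (middle) and 21 further class I pathway genes (right). Filled points have an unadjusted limma p under 0.05: 4, 5 and 4 genes, of which Mr1 alone lies below 0.

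Of 13 further genes of class II loading, 5 were higher at an unadjusted p under 0.05 and 0 were lower, where 6.48% and 5.52% of all probe sets were, with a median difference of 0.25 (log2). H2-DMb1, a chain of the H2-DM exchange factor, read 8.04 ± 0.34 in MYTHO-KD and 6.93 ± 0.41 in scramble muscles, a rise of 1.11 (limma, unadjusted p = 5.34e-04, adjusted p = 0.0841). Ctss, the protease that trims the invariant chain, read 8.36 ± 0.55 and 7.26 ± 0.35, a rise of 1.10 (limma, unadjusted p = 0.00165, adjusted p = 0.131). Ifi30, the thiol reductase that opens disulfide bonds of antigens, rose by 0.82 (9.14 ± 0.25 against 8.32 ± 0.46; limma, unadjusted p = 0.00439, adjusted p = 0.179).

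The lysosomal proteases Ctsl and Lgmn also cleave endosomal proteins outside antigen loading. Ctsl rose by 0.66 (limma, unadjusted p = 0.0278, adjusted p = 0.344) and Lgmn by 0.60 (limma, unadjusted p = 0.0359, adjusted p = 0.376; the naming rule stops at 4 genes a list, and Lgmn was added as the fifth after its value was seen). Without moderation, and with unequal variances, 3 of the 13 passed instead of 5, and the share of all probe sets under those fits is not given here. H2-DMa, the other chain of the exchange factor, read 5.22 ± 0.29 and 5.04 ± 0.09, and with H2-Oa, H2-DMb2 and H2-Eb2 it made up the 4 of the 13 that lay under the 30th percentile in both groups. The X box core was in the promoters of 3 of the 11 genes of this list with a matched sequence, H2-DMb1, H2-Oa and H2-Eb2, and H2-DMb1 alone of these was among the 5 that rose.

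Of 21 further class I genes, 3 were higher and 1 was lower at an unadjusted p under 0.05 (background 6.48% and 5.52%), with a median difference of 0.09. Psme1, a subunit of the proteasome activator PA28, rose by 0.77 (14.51 ± 0.32 against 13.74 ± 0.52; limma, unadjusted p = 0.0118, adjusted p = 0.259). Canx and Pdia3, chaperones of glycoprotein folding in the endoplasmic reticulum that also serve class I assembly, rose by 0.78 (limma, unadjusted p = 0.0124, adjusted p = 0.263) and 0.48 (limma, unadjusted p = 0.0278, adjusted p = 0.344).

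Mr1 went the other way. It encodes a class I-like molecule that shows microbial vitamin B metabolites to innate-like T cells, and it read 10.17 ± 0.23 in MYTHO-KD and 11.35 ± 0.54 in scramble muscles. It fell by 1.18 on the log2 scale (limma, unadjusted p = 5.49e-04, adjusted p = 0.0844) and was the only gene of the list past 2-fold. Probe sets of the H2-Q and H2-T genes can be shared between near-identical copies (H2-Q7 with H2-Q9, H2-Q6 with H2-Q8, H2-T22 with H2-T9), and none of these passed 0.05.

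Among 17 genes of the RFX, NF-Y and CREB factors and of interferon-gamma signalling, 1 was higher and 1 was lower at an unadjusted p under 0.05, near the shares of all probe sets (6.48% and 5.52%), with a median difference of -0.04. Ifngr2, a chain of the interferon-gamma receptor, rose by 0.43 (limma, unadjusted p = 0.0351, adjusted p = 0.373), and Nfyc, a subunit of the factor that binds the CCAAT box, fell by 0.45 on the log2 scale (limma, unadjusted p = 0.0376, adjusted p = 0.383). With unequal variances neither passed 0.05. Of 15 genes known to be induced by interferon-gamma, 0 were higher and 1 was lower (background 6.48% and 5.52%), the GTPase Iigp1, which fell by 0.80 on the log2 scale (limma, unadjusted p = 0.0164, adjusted p = 0.291; 0.0623 unadjusted without moderation). Their median difference was -0.06. Irgm2, another GTPase of this response, read 8.88 ± 0.65 and 8.36 ± 0.60 (limma, unadjusted p = 0.158).

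Markers of macrophages, cells that carry class II, were in part higher in the same muscles. Of 12 markers, 7 were higher at an unadjusted p under 0.05 (background 6.48%) and 0 were lower (background 5.52%). With 2-fold or more added, 3 passed (background 0.86%), and the median difference was 0.575. The 5 that did not reach that p include C1qa (difference 0.66, limma, unadjusted p = 0.0634) and Adgre1 (0.48, limma, unadjusted p = 0.0573). The rest of these were Mrc1 (0.37, limma, unadjusted p = 0.178), Fcgr1 (0.06, limma, unadjusted p = 0.836) and Mertk (-0.07, limma, unadjusted p = 0.807). The lysosomal glycoprotein Cd68 read 9.43 ± 0.88 in MYTHO-KD and 6.90 ± 0.20 in scramble muscles, a rise of 2.53 (limma, adjusted p = 0.0182). The lysozyme gene Lyz2 rose by 1.94 (11.11 ± 0.62 against 9.17 ± 0.35; limma, adjusted p = 0.0277). The complement gene C1qb rose by 1.27 (limma, unadjusted p = 3.91e-04, adjusted p = 0.0754) and the receptor Csf1r by 0.99 (limma, unadjusted p = 0.0107, adjusted p = 0.249).

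Summed on the linear scale, the averages of the 12 macrophage markers came to 5160 in MYTHO-KD and 2280 in scramble muscles, a ratio of 2.26. The bright gene Lyz2 carries much of that, and the other 11 markers summed to 2950 and 1700, a ratio of 1.73. None of the 12 lay under the 30th percentile in both groups. The SD of Cd68 was larger in MYTHO-KD than in scramble muscles (0.88 against 0.20), and which muscles were highest could not be read from averages. Without moderation, and with unequal variances, 3 of the 12 passed instead of 7. The share of all probe sets that passed under those fits is not given here, so the drop has no background beside it. The part of these markers in the class II result was not tested.

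No marker of dendritic cells, B cells, or T and NK cells passed the test as higher. Lists this short would hold few calls at the shares of all probe sets (6.48% higher and 5.52% lower). Of 9 dendritic cell markers 0 were higher and 0 lower, with a median difference of -0.18 and sums of 683 in MYTHO-KD and 763 in scramble muscles, and 5 of the 9, Flt3, Itgax, Clec9a, Xcr1 and Zbtb46, lay under the 30th percentile in both groups. Of 7 B cell markers 0 passed in either direction, with a median of -0.17 and sums of 284 and 312, and Ms4a1 and Cd79a were among the 5 at that floor. Without moderation, and with unequal variances, the dim markers Flt3 (difference -0.35) and Cd22 (difference -0.31, a B cell marker) passed 0.05 as lower. Of 11 T and NK cell markers 0 were higher and 1 was lower, the NK receptor Klrb1c, which fell by 0.72 on the log2 scale (limma, unadjusted p = 0.0235, adjusted p = 0.325). Their median was -0.13, the sums were 572 and 631, and 7 of the 11 were at the floor, among them Cd8a and Cd3g.

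Endothelial cells line the capillaries of muscle and carry class I. Their 8 markers all had a higher average in MYTHO-KD muscles, 2 of them at an unadjusted p under 0.05 (background 6.48%), with a median difference of 0.355 and sums of 23300 and 16700. The median difference of all probe sets was -0.01, and the share of them above 0 is not given here. The growth factor receptor Kdr rose by 0.75 (limma, unadjusted p = 0.00491, adjusted p = 0.19) and the coreceptor Eng by 0.64 (limma, unadjusted p = 0.0327, adjusted p = 0.364; 0.0882 unadjusted without moderation). The part of these markers in the class I and class II values was not tested. The labelled tissue was checked with 10 muscle fibre markers, which read 17.58 to 19.93 in both groups, with a median difference of 0. The arrays can show no rise above 19.93, the upper end of the signal range, at which 3 of these markers stood in both groups. The fast myosin gene Myh1 rose by 0.59 (limma, unadjusted p = 0.00873, adjusted p = 0.23). Myh2, another fast myosin gene, read 19.91 ± 0.01 in MYTHO-KD and 19.50 ± 0.16 in scramble muscles, so near that upper end that the size of its difference and its test cannot be relied on.

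**Figure D3:**
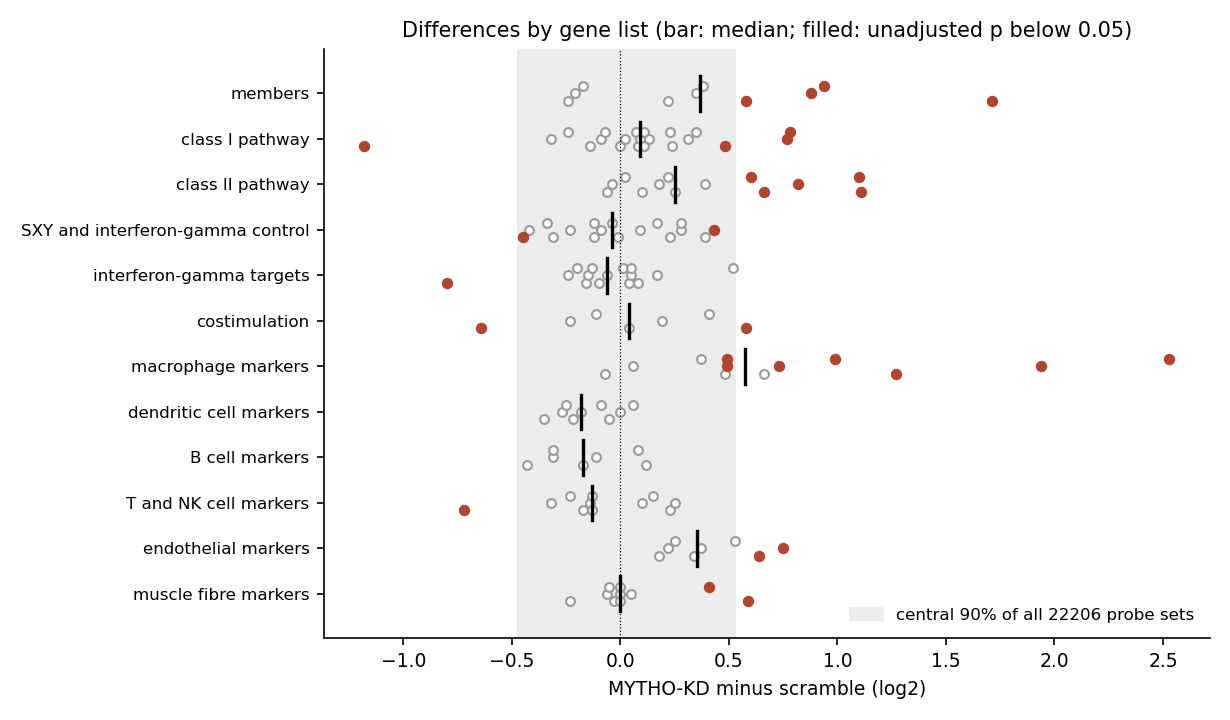
MYTHO-KD minus scramble (log2) for each gene of each list, with the list's median as a bar, filled points for an unadjusted limma p under 0.05, and a grey band for the central 90% of all probe sets (-0.47 to 0.53). The medians of the 10 genes (0.365), the macrophage markers (0.575), the endothelial markers (0.355) and the further class II genes (0.25) lie above 0. Those of the further class I genes (0.09) and the costimulation list (0.04) lie closer to it on the same side. The medians of the dendritic cell, B cell, T and NK cell, and interferon-gamma lists lie below it.

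The position of the genes in the MHC was set beside their change. Between H2-K1 and H2-D1, the classical class I genes at the ends of the region (chr17:33996012-35267499, 1.27 megabases), the table held 92 probe sets, with a median difference of 0. Of these 7 were higher and 5 lower at an unadjusted p under 0.05, close to the shares of all probe sets (6.48% and 5.52%). The largest 3 differences were those of H2-DMb1, H2-Aa and H2-Eb1, and H2-Ab1 was also among the 7. In the class II stretch from H2-Oa to H2-Ea-ps, 4 of 16 probe sets were higher and 0 were lower. The other 12 include further class II genes, namely H2-Oa, H2-DMa, H2-DMb2, H2-Ob, H2-Eb2 and H2-Ea-ps. Also among the 12 are Tap1, the related transporter gene Tap2 and the immunoproteasome genes Psmb8 and Psmb9, which lie between the genes that rose. Tnxb, a matrix protein gene, was the highest gene outside class II, at 10.35 ± 0.18 against 9.71 ± 0.18, a rise of 0.64 (limma, unadjusted p = 0.00251, adjusted p = 0.152). The largest fall was that of Atp6v1g2, a proton pump subunit, by 0.67 on the log2 scale (limma, unadjusted p = 0.00623, adjusted p = 0.204). Tnxb and Atp6v1g2 were chosen after their values were seen.

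**Figure D4:**
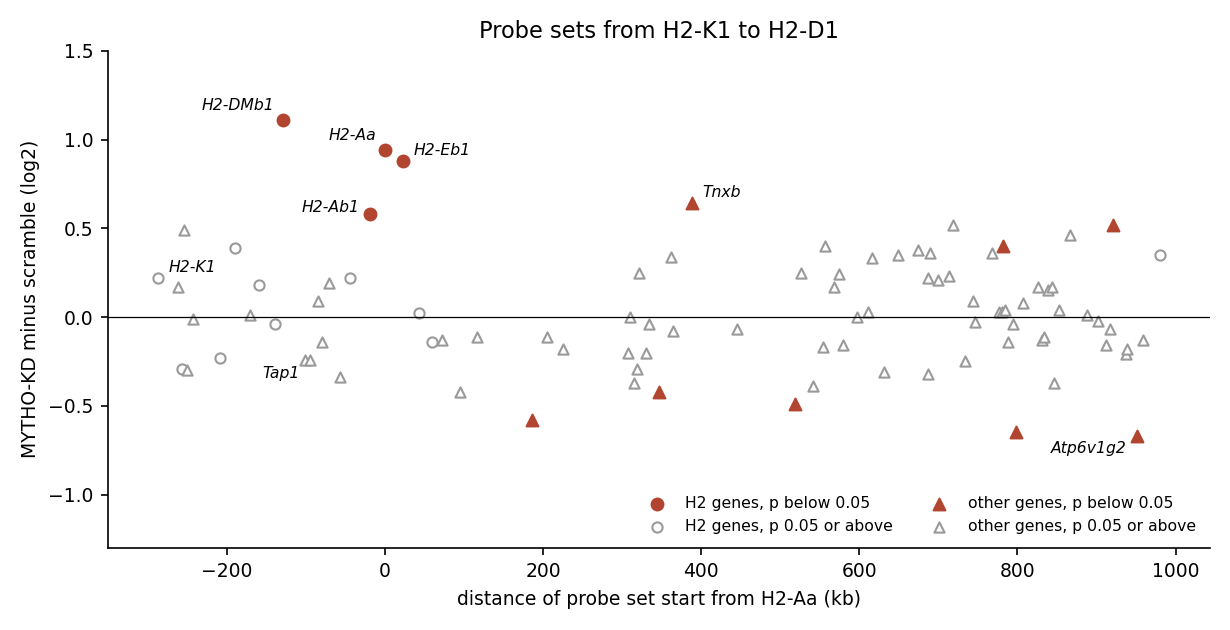
MYTHO-KD minus scramble (log2) of the 92 probe sets from H2-K1 to H2-D1 against the distance of each probe set's start from that of H2-Aa in kb, with circles for H2 genes and triangles for other genes. Filled points have an unadjusted limma p under 0.05, and 4 of the 7 filled points above 0 are class II genes within about 130 kb of H2-Aa.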

How the data were processed

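The authors' methods name total RNA from GAS muscle, Clariom S Mouse arrays and default parameters of the Transcriptome Analysis Console with SST-RMA, while the labels' processing notes name Affymetrix Expression Console and RMA. The deposited table holds, for 22206 probe sets, the authors' average signal of each group on the log2 scale, its SD, a flag for expression, and the authors' own fold changes, p-values and false discovery rates, which were not used. The kind of average is not given in the sources used here, and the p-values below take it as a plain mean. SST-RMA widens the range of low signals, which bears on the size of differences. Coordinates are those of the table (mm10). Signals of different probe sets were summed over marker lists and set against a percentile of all probe sets to mark dim ones. Neither use was taken as a comparison of RNA levels between genes.

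A limma model on single arrays was planned, and the table gives group averages, so averages and SDs were instead entered into the moderation of limma 3.58.1 (R 4.3.3), with 4 arrays a group, 6 residual degrees of freedom, prior SD 0.284, prior degrees of freedom 5.85, and a two-sided p. Benjamini-Hochberg adjustment covered every probe set. The code was tested on simulated arrays with known changes before use. Tables and plots were made in Python 3.11.15. The model takes the muscles as independent, although the methods describe opposite legs of the same mice, and the labels tie no muscle to a mouse. The p-values thus rest on the spread between muscles within each group, moderated over all probe sets. They do not use the differences between the legs of a mouse, and may be too high or too low for that reason. Arrays have no depth, and their number limits the precision.

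The genes and lists were chosen with earlier results of these data known. Named are all 10 genes, from each list at most the 4 with the lowest p under 0.05 and the 2 with the largest difference, markers at the floor, and the targeted gene. Some genes that did not pass were named beside these after their values were seen. Where a gene had several probe sets, the brightest was used. Of 12 T and NK cell markers 11 were matched. Alternatives were the plain pooled variance, a robust prior with a trend, unequal variances, filters on dim or unexpressed probe sets, 1 probe set per symbol, centring on all probe sets or within 20 bins of signal, and a limit of 1.5-fold.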

Additional observations from a re-analysis of the deposited data

How the results depend on the processing

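The 4 class II genes kept an unadjusted p under 0.05 under each of the 8 alternative fits, and 0 of the 10 genes were lower under any of them. The number of genes at 2-fold or more rose from 1 to 3 with a limit of 1.5-fold. The share of all probe sets past 1.5-fold is not given here, so this rise has no background beside it. The number at an adjusted p under 0.05 rose from 0 to 1, which was Cd74, with a trend and robust prior (limma, adjusted p = 0.0124), with dim probe sets left out (adjusted p = 0.0455), with probe sets expressed in both groups (adjusted p = 0.049) and with centring on all probe sets (adjusted p = 0.0484). The median difference of the 10 genes ran from 0.345 to 0.48 (log2). Of 38 genes followed, 0 changed direction, and 8 lost an unadjusted p under 0.05 with unequal variances (Psme1, Ctsl, Ifngr2, Nfyc, Iigp1, Csf1r, Klrb1c and Eng). Flt3 and Cd22 passed as lower in that fit and without moderation, and B2m passed as higher with the trend and robust prior. No paired analysis was possible because the table gives group averages without the values of single muscles, and for the same reason leaving out each replicate could not be run. A second probe set of a gene could not be tried, since each of the 10 had 1. Signal close to the floor limits what can be said of Ciita and Nlrc5.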

Other observations

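Costimulatory molecules, which T cells need beside the MHC signal, were measured by 7 genes. Of these 1 was higher and 1 was lower at an unadjusted p under 0.05, where 6.48% and 5.52% of all probe sets were, and 5 did not pass, with a median difference of 0.04 (log2). Cd83, a surface marker of activated antigen-presenting cells, read 7.30 ± 0.33 (SD, n = 4) in MYTHO-KD and 6.72 ± 0.19 in scramble muscles, a rise of 0.58 in the brighter of its 2 probe sets (limma, unadjusted p = 0.012, adjusted p = 0.261). Its dimmer probe set differed by -0.26, the other way, and did not pass (limma, unadjusted p = 0.191). Cd86, a ligand of CD28, read 5.41 ± 0.34 and 6.05 ± 0.38, and fell by 0.64 on the log2 scale (limma, unadjusted p = 0.0167, adjusted p = 0.294).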
